A study of Mus musculus with 6 samples.

Results

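Integrin and laminin genes were followed in lung buds of mouse embryos at E11.5 from a cross designed to delete the histone deacetylase genes Hdac1 and Hdac2 in cells with an active Shhcre allele, and in buds of control embryos. The genes were chosen by symbol: every integrin alpha and beta subunit and every laminin chain that the platform annotation of the Affymetrix MoGene 1.1 ST array ties to a probe of its own, leaving out integrin-binding proteins of similar name. This gave 37 of the 19938 genes measured, made up of 18 integrin alpha subunits, 9 integrin beta subunits and 10 laminin chains. Itgad had 2 probes and the brighter one was used, and each of the other members had 1 probe.

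The DKO group held 3 samples with the genotype Shhcre:Hdac1fl/fl; Hdac2 fl/fl, and the control group held 3 samples that carried Shhcre with no floxed allele named. Both groups therefore carried Shhcre, an allele that expresses Cre recombinase from the Sonic hedgehog locus, which is active in the lung epithelium. Both were on a mixed background of C57BL/6 with 129X1 and 129S1, and the titles number the samples of a group as biological replicates. How many embryos went into each is not given, so p-values here describe sample-to-sample spread only. Whole buds were profiled, with epithelium, mesenchyme, vessels and blood together, so fewer cells of a type and less RNA per cell cannot be told apart in any value below. Values are log2 expression levels after RMA, whose arrays are scaled alike, and the arrays had medians of 7.87 to 7.89. Hdac1 was 1.21-fold lower in DKO (log2 change -0.28, SE 0.05, adjusted p = 0.0193), and Hdac2 stood at -0.04 (SE 0.06, adjusted p = 0.845). The position of these probes relative to the floxed exons is not known here, so neither value shows how complete the deletion was.

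Laminins are heterotrimers of an alpha, a beta and a gamma chain that assemble into the sheet of the basement membrane on which epithelium, muscle and endothelium rest. Integrins are heterodimers of an alpha and a beta subunit that span the cell membrane, bind laminin, collagen, fibronectin or other ligands outside and connect to the actin or keratin cytoskeleton inside. In the embryonic lung the basement membrane lies between the branching epithelium and the surrounding mesenchyme, and several members are known to matter there, among them Lama1 and Lama5 in the basement membrane, Itga3 in epithelium and Itga8 in mesenchyme.

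Of the 37 genes, 1 was called, at an adjusted p under 0.05 over all 19938 genes: Lamb3, the laminin beta3 chain, fell 1.32-fold in DKO. No integrin gene passed. A call was made for 2.41% of all genes in either direction, with 1.03% higher and 1.38% lower, so 1 of 37 is near the share for all genes. An unadjusted p under 0.05 was found for 5 members, Lamb3, Itga1, Itgb3, Itga8 and Itga2b, against 12.8% of all genes. The 3 DKO values lay apart from the 3 control values for 9 of the 37 genes, 6 higher and 3 lower, against 18.8% of all genes, with 8.36% higher and 10.4% lower. The median log2 change over the members was 0.03 and over all genes 0.00, and the members ran from -0.40 to 0.34. Values were above 0 for 25 members and below 0 for 12.

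The intervals bound the changes that were not called. For each of the 36 other members the 95% confidence interval lay inside a 1.5-fold change in either direction, and for 32 of them inside a 1.25-fold change. The 4 with intervals reaching past 1.25-fold were Itga1, Itgb3, Itga8 and Itga2b, all above 0. These are bounds on the probe signal in whole buds. The deposited table gives no detection calls, so for a dim probe a narrow interval does not show that the transcript was steady. The plot of changes with their intervals shows Lamb3 apart from the other laminin chains and Itga1 and Itgb3 at the upper end of their families.

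**Figure D1:**
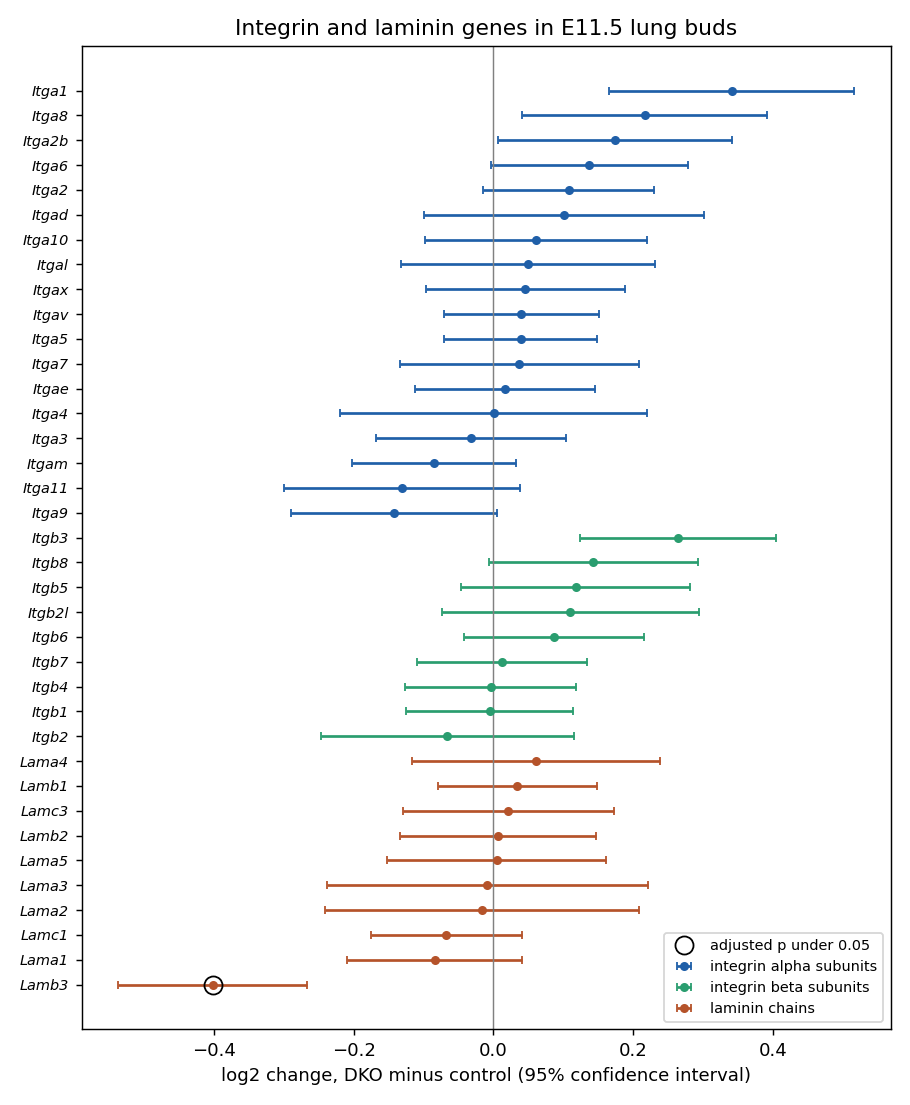
Log2 change (DKO minus control) of the 37 integrin and laminin genes with 95% confidence intervals, n = 3 arrays per group, ordered by change within integrin alpha subunits, integrin beta subunits and laminin chains. The circled gene, Lamb3 at -0.40, is the 1 with an adjusted p under 0.05, and the highest value is Itga1 at 0.34.

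The proximal promoters of Lamb3, Itga1, Itga8 and Itga2b are shown to set the 1 called gene beside the members with the next lowest p-values. RefSeq promoter windows, 250 bases before to 50 after an annotated start in GRCm38.p6, were at hand for 24 of the 37 members (27 windows), and not for Itgb3. Capitals mark CG dinucleotides, the sites of DNA methylation, and all are written along the gene's strand.
Lamb3, chr1:193301744-193302043, plus strand: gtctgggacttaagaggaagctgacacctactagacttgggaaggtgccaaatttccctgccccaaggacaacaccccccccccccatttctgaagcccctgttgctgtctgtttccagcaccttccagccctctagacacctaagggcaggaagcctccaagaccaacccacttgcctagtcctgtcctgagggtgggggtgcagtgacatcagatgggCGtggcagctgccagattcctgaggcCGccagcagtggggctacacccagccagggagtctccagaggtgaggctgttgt
Itga1, chr13:115101915-115102214, minus strand: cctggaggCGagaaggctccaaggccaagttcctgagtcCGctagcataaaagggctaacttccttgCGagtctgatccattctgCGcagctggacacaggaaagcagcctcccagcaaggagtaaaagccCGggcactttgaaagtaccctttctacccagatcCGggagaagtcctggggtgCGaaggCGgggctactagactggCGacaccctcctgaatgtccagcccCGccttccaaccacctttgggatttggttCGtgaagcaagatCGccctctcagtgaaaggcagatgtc
Itga8, chr2:12301895-12302194, minus strand: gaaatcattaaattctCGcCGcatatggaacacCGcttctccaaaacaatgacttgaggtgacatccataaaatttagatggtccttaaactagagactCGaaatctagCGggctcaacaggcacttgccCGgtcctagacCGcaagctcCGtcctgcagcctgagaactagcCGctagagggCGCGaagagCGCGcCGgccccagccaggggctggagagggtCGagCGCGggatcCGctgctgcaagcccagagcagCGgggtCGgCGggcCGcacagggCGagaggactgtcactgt
Itga2b, chr11:102469834-102470133, minus strand: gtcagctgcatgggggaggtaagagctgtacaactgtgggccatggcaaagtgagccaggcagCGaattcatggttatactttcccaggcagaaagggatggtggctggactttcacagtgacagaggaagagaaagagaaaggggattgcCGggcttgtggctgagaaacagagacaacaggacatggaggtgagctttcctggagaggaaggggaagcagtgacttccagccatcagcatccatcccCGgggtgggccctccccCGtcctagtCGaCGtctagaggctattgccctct
The Lamb3 window holds 2 CG dinucleotides, Itga1 12, Itga8 23 and Itga2b 6, against a median of 7 over all 32851 windows. The members ran from 1 CG in Lama2 to 27 in Itgb1, so both ends of the range were genes that did not pass. A window at another annotated start of Lamb3 holds 5. Among 4 short motifs searched on both strands, the NK2-class core CAAGTG, known from binding of Nkx2-1 and its relatives, was found once in the Lamb3 window shown (position -80 from the start) and once in Itga8 (position -128). It was in 4 of the 27 member windows and in 13.6% of all windows. None of the 4 windows shown held the AP-1 motif TGANTCA (3 of 27 member windows, 7.81% of all), the forkhead motif TGTTNAC (1 of 27, 10.4%) or the GATA core GATAA (2 of 27, 25.4%). These matches describe the letters only.

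Lamb3 encodes the beta3 chain, which joins the alpha3 chain of Lama3 in a laminin of epithelial anchoring structures. Its log2 level was 7.40, 7.52 and 7.41 in DKO buds 1 to 3, against 7.85, 7.92 and 7.77 in control buds 1 to 3. The highest DKO value lay below the lowest control value, and the spread was alike in both groups, at 7.44 ± 0.07 in DKO and 7.84 ± 0.07 in control (SD, n = 3 each). This is a change of -0.40, with SE 0.06, a 95% interval of -0.54 to -0.27 and an adjusted p of 0.00917. The fall was between -0.44 and -0.37 under every alternative run that kept the gene. The call was lost without control 1 (adjusted p = 0.0552) or control 2 (0.0564), when adjusted over all probes of the array (0.0572) and with ordinary least squares (0.148), and the gene was not among those tested without the dimmest 50% of genes.

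The chains that can pair with or replace it did not pass. Lama3, the partner of Lamb3, was at 8.93, 9.15 and 9.27 in DKO and at 8.95, 9.23 and 9.20 in control, a change of -0.01 (SE 0.10, interval -0.24 to 0.22). The groups overlapped fully, and the first array of each group held its lowest value. Lamb1, the beta chain of the early basement membrane, stood at 0.03 (SE 0.05) and Lamb2, the beta chain of muscle and kidney basement membranes, at 0.01 (SE 0.06). Taken within each array, Lamb3 minus Lama3 differed by -0.39 between DKO and control (DKO minus control, log2), Lamb3 minus Lamb1 by -0.44 and Lamb3 minus Lamb2 by -0.41. In each of these pairs the DKO and control arrays did not overlap. The exact two-sided permutation p was 0.10 for each, the smallest that 3 arrays against 3 can give, and 0.117 after Benjamini-Hochberg adjustment over the 14 pairs compared, which were chosen with the values known.

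None of the other laminin chains passed. Lama1, the alpha chain of the earliest embryonic basement membranes, averaged 8.90 ± 0.07 in DKO and 8.99 ± 0.04 in control (SD, n = 3 each), a change of -0.08 (SE 0.06, adjusted p = 0.624). Lama5, the main alpha chain under developing epithelia, was at 9.53, 9.78 and 9.61 in DKO and at 9.64, 9.67 and 9.60 in control (0.00, SE 0.07, interval -0.15 to 0.16). The DKO values of Lama5 bracketed all 3 control values. Lamc1, the gamma chain shared by most laminins, was at 11.16, 11.14 and 11.16 in DKO, against 11.24, 11.23 and 11.19 in control. Those groups did not overlap, but the change was small, at -0.07 (SE 0.05, adjusted p = 0.659). Lama2, the alpha chain of muscle, stood at -0.02 (SE 0.10) and Lama4, the alpha chain of vessel walls, at 0.06 (SE 0.08). Lama4 was at 10.06 in DKO 1 and at 9.79 and 9.78 in DKO 2 and 3, against 9.83, 9.81 and 9.81 in control, so DKO 1 alone lay above the controls. Lamc3 stood at 0.02 (SE 0.07). The median over the 10 chains was below 0 before rounding, at -0.00, with 5 above and 5 below 0.

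Lung epithelial markers moved with the groups beside Lamb3. Of 22 measured markers, 11 fell and 0 rose, their median change was -0.33, and their summed level lay between 13.58 and 13.77 (log2) in DKO and between 14.11 and 14.20 in control. No marker of this or any other list is at 0, since RMA values have no zero. Epcam, a cell adhesion molecule found on all lung epithelium, was at 9.37, 9.40 and 9.40 in DKO and at 9.77, 9.98 and 9.93 in control (change -0.50, SE 0.06, adjusted p = 0.00428). The change of Lamb3 relative to Epcam was 0.10, with overlapping groups (exact two-sided permutation p = 0.30, adjusted 0.30), and this depends on the marker. Against each of the 22 markers in turn it ran from -0.48 (Krt19) to 0.51 (Prss8) with a median of -0.07, and the DKO differences lay apart above the control ones for 6 markers, apart below for 6 and overlapped for 10. What part the lower epithelial signal has in the fall of Lamb3 was not tested.

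The other laminin and integrin genes known from epithelium had changes of -0.03 to 0.14, and none passed. Relative to Epcam in the same array, Lama3 was higher in DKO by 0.49, Lama5 by 0.51, Itga3 by 0.47, Itga6 by 0.64 and Itgb4 by 0.50 on the log2 scale. These sizes depend on the choice of Epcam. Over the 22 markers the median was 0.32 for Lama3 (-0.09 to 0.90), 0.33 for Lama5 (-0.08 to 0.92), 0.30 for Itga3 (-0.11 to 0.88), 0.47 for Itga6 (0.05 to 1.05) and 0.33 for Itgb4 (-0.09 to 0.91), with the lowest value against Krt19 and the highest against Prss8 in each case. The DKO differences lay apart above the control ones for 15 of the 22 markers for Lama3, 19 for Lama5 and 18 each for Itga3, Itga6 and Itgb4. Against Epcam, the DKO and control differences were separate for each of the 5. The exact two-sided permutation p was 0.10, the smallest possible, and 0.117 after adjustment over the 14 pairs. The 5 comparisons share Epcam, whose own change was -0.50, so they are not 5 independent results. The 5 genes are also expressed outside the epithelium to different degrees, and their share from each cell type was not measured.

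Among the integrin alpha subunits that bind laminin, 0 of 3 passed. Itga6, which pairs with Itgb4 in hemidesmosomes and with Itgb1 elsewhere, was at 10.11, 9.95 and 10.10 in DKO and at 9.99, 9.87 and 9.89 in control (0.14, SE 0.06, adjusted p = 0.408). DKO 2 lay within the control values, and the gene passed with array weights (adjusted p = 0.0425). Itga3, the epithelial receptor for laminins with the alpha3 or alpha5 chain, was at 8.95, 9.14 and 9.06 in DKO and at 9.06, 9.09 and 9.10 in control (-0.03, SE 0.06, interval -0.17 to 0.10). Itga7, the laminin receptor of muscle, stood at 0.04 (SE 0.08). Itgb4, the partner of Itga6 that reaches the keratin cytoskeleton, was at 7.76, 7.90 and 7.80 in DKO and at 7.85, 7.80 and 7.82 in control, with an interval of -0.13 to 0.12.

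Of the 4 collagen-binding alpha subunits, Itga1 had the highest change of any member and did not pass. Itga1 pairs with Itgb1 as a receptor for collagens including collagen IV, on smooth muscle and small vessels among other cells. Its level was 9.37, 9.09 and 9.12 in DKO and 8.79, 8.88 and 8.88 in control. Every DKO value lay above every control value, and DKO 1 stood well above the other two. The change was 0.34 (SE 0.08, interval 0.17 to 0.52, unadjusted p = 0.00171, adjusted p = 0.0623), which is 1.27-fold. It passed without DKO 2 (adjusted p = 0.0239), with an intensity trend (0.0245), with a second quantile normalization (0.0472), without the dimmest 30% (0.0389) or 50% of genes (0.0248) and with array weights (0.0099), and its adjusted p reached 0.317 over the other alternatives. Itga2, the collagen receptor best known from platelets and epithelium, was at 9.51, 9.48 and 9.58 in DKO and at 9.37, 9.47 and 9.41 in control (0.11, SE 0.05, adjusted p = 0.466). These groups also did not overlap, though by a margin that disappears at 1 decimal, and Itga2 passed with array weights (adjusted p = 0.0452). The change of Itga1 exceeded that of Itga2 by 0.23 within arrays (exact two-sided permutation p = 0.10, adjusted 0.117). Itga10 stood at 0.06 and Itga11 at -0.13 (SE 0.07 each). The value of Itga11 rested on control 1, at 7.65 beside 7.41 and 7.40 in the other controls and 7.30, 7.40 and 7.37 in DKO.

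Among markers of smooth muscle, where Itga1 is known, 7 of the 9 measured fell and 1 rose. Their median change was -0.44, and their summed level was 12.65 to 12.89 in DKO and 13.11 to 13.26 in control. Endothelial markers, another known site, had 0 calls among 14 by limma (2 at an unadjusted p under 0.05), a median of 0.11 and a summed level of 13.68 to 13.84 in DKO and 13.61 to 13.66 in control. The endothelial receptor gene Tek was at 9.75, 9.52 and 9.60 in DKO and at 9.45, 9.45 and 9.36 in control. DKO 1 was highest for Tek, as for Itga1 and Lama4, but the list was divided. Pecam1, Cdh5, Kdr, Flt1 and Emcn were also highest in DKO 1 among the DKO arrays. Tie1, Erg, Sox17, Sox18, Esam, Eng, Cldn5 and Egfl7 were highest in DKO 2. Whether endothelial RNA takes part in the values of Itga1 and Lama4 was not tested.

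The alpha subunits that recognise the RGD peptide of fibronectin and related ligands were all above 0, and 0 of 4 passed. Itga8, which pairs with Itgb1 and binds nephronectin and fibronectin on mesenchyme and smooth muscle, was at 11.15, 10.97 and 10.83 in DKO and at 10.77, 10.74 and 10.79 in control. The lowest DKO value was just above the highest control value, while the DKO values spread widely, at 10.98 ± 0.16 in DKO and 10.77 ± 0.02 in control (SD, n = 3 each). The change was 0.22 (SE 0.08, interval 0.04 to 0.39, adjusted p = 0.257). It did not pass under any alternative run (adjusted p = 0.108 to 0.537) and was 0.10 with array weights. Mesenchymal markers went both ways beside it. Of 12 measured, 2 rose, the growth factor gene Fgf10 (1.05) and Meox2 (0.63), and 1 fell, Twist2 (-0.28), with a median of -0.05 and a summed level of 14.45 to 14.48 in DKO and 14.43 to 14.46 in control. Itga5, the classical fibronectin receptor, was at 10.27, 10.22 and 10.20 in DKO and at 10.20, 10.20 and 10.17 in control (0.04, SE 0.05), and Itgav, the common partner of several beta subunits, was at 10.39, 10.38 and 10.38 in DKO and at 10.39, 10.30 and 10.35 in control (0.04, SE 0.05).

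Itga2b and Itgb3 encode the subunits of the fibrinogen receptor of megakaryocytes and platelets, and Itgb3 also pairs with Itgav on vessels and other cells. Itgb3 was at 8.70, 8.86 and 8.71 in DKO and at 8.42, 8.53 and 8.52 in control. The groups did not overlap, and the change was 0.26 (SE 0.06, interval 0.12 to 0.40, unadjusted p = 0.00214, adjusted p = 0.0709). It passed with an intensity trend (adjusted p = 0.0443), without the dimmest 30% (0.0428) or 50% of genes (0.0265) and with array weights (0.0118), and its change lay between 0.21 and 0.29 under all alternatives. Itga2b was at 8.26, 8.54 and 8.47 in DKO and at 8.23, 8.23 and 8.29 in control (0.17, SE 0.07, adjusted p = 0.363). DKO 1 lay within the control values and the other DKO arrays above them. Itga2b passed with array weights (adjusted p = 0.0339).

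Megakaryocyte markers moved with the groups beside both genes. Of the 4 measured among 8 listed, 2 rose and 0 fell: the platelet chemokines Ppbp (0.57, SE 0.07, adjusted p = 0.00513) and Pf4 (0.38, SE 0.05, adjusted p = 0.0078). Gp9, a subunit of the von Willebrand factor receptor, stood at 0.13 and Treml1 at 0.12. The summed level of the list was 12.01 to 12.19 in DKO and 11.64 to 11.72 in control. Pf4 was at 9.96, 10.06 and 9.93 in DKO and at 9.60, 9.56 and 9.64 in control. Relative to Pf4 in the same array, Itgb3 stood at -0.12 and Itga2b at -0.21, with separate groups in both cases (exact two-sided permutation p = 0.10, adjusted 0.117). Over the 4 markers the values ran from -0.31 to 0.14 for Itgb3 and from -0.40 to 0.05 for Itga2b, lowest against Ppbp and highest against Treml1, and for both genes the groups overlapped with 2 of the 4 markers. The part of platelet or megakaryocyte RNA in the values of Itgb3 and Itga2b was not tested. Itgb3 exceeded Itgav by 0.22 within arrays (exact permutation p = 0.10, adjusted 0.117), and its excess over Itgb5 of 0.15 had overlapping groups (exact permutation p = 0.20, adjusted 0.215).

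**Figure D2:**
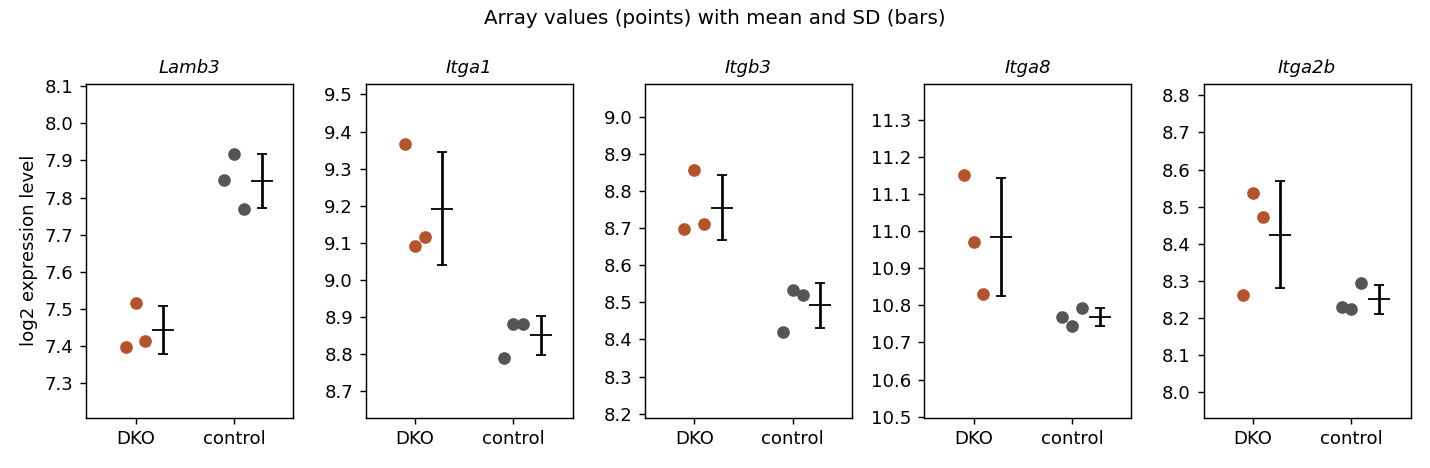
Log2 expression level of the 5 members with an unadjusted p under 0.05, with 3 DKO arrays left of 3 control arrays in each panel, points for arrays (replicates 1 to 3 from left to right) and bars for the mean with SD. Each panel spans 0.9 log2 units. Lamb3 lies lower in DKO, Itga1, Itgb3 and Itga8 lie higher without overlap, and DKO 1 of Itga2b lies within the controls.

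Of the beta subunits that pair with Itgav, Itgb3, Itgb5, Itgb6 and Itgb8 were above 0 and Itgb1, which also has other partners, was just below it, and none passed. Itgb8, which with Itgav releases active TGF-beta, was at 9.91, 9.70 and 9.74 in DKO and at 9.62, 9.62 and 9.69 in control (0.14, SE 0.07, adjusted p = 0.417), with DKO 2 and control 3 nearly touching. Itgb5, a vitronectin receptor subunit, was at 10.72, 10.80 and 10.53 in DKO and at 10.62, 10.52 and 10.57 in control (0.12, SE 0.07). Its groups overlapped, and with array weights the change was -0.00. Itgb6, the epithelial activator of TGF-beta, was at 6.26, 6.30 and 6.26 in DKO and at 6.14, 6.28 and 6.14 in control (0.09, SE 0.06, adjusted p = 0.622). The Itgb6 probe was the dimmest of the members, with a mean level over all arrays of 6.23 (percentile 17.3 of all genes). Without detection calls, whether the Itgb6 transcript was detected is not known. Itgb1, the partner of most alpha subunits, averaged 11.05 ± 0.04 in DKO and 11.05 ± 0.05 in control (SD, n = 3 each), with a change of -0.01 (SE 0.05, interval -0.12 to 0.11). The 3 DKO values lay inside the range of the control values.

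Itga4 and Itga9, related subunits that bind VCAM-1, fibronectin and tenascin-C, did not pass. Itga9 was at 10.18, 10.14 and 10.21 in DKO and at 10.21, 10.44 and 10.32 in control (-0.14, SE 0.07, adjusted p = 0.411), with DKO 3 level with control 1. Itga4 averaged 9.63 in both groups (interval -0.22 to 0.22), with DKO 3 at 9.87 and DKO 1 and 2 at 9.55 and 9.48. The DKO spread of Itga4 was 0.21, against 0.07 in control (SD, n = 3 each).

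The integrins of leukocytes gave 0 calls among 8 genes by limma, with 0 at an unadjusted p under 0.05 and changes of -0.08 to 0.11. They were the alpha subunits Itgal, Itgam, Itgax, Itgad and Itgae and the beta subunits Itgb2, Itgb2l and Itgb7. Apart from Itgad these probes were dim. Their mean levels over all arrays ran from 6.29 (Itgax, percentile 18.1 of all genes) to 7.45 (Itgb2l, percentile 37.9). Without detection calls, whether these transcripts were detected is not known. Itgam, the alpha chain of the complement receptor of macrophages, was at 6.45, 6.45 and 6.44 in DKO and at 6.48, 6.51 and 6.60 in control (-0.08, SE 0.05, adjusted p = 0.584), without overlap. Itgb2, the common beta chain of these receptors, was at 6.87, 7.17 and 6.93 in DKO and at 7.07, 6.99 and 7.11 in control (-0.07, SE 0.08). Both probes of Itgad were above 0, at 0.10 and 0.07. Leukocyte markers had 0 calls among 12 by limma (6 at an unadjusted p under 0.05), a median of -0.12 and a summed level of 11.60 to 11.71 in DKO and 11.76 to 11.83 in control.

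Across the members the DKO arrays scattered more than the controls, as over the whole array. The median SD was 0.10 in DKO and 0.05 in control for the 37 genes, and 0.08 in DKO and 0.06 in control for all genes. The SD was higher in DKO for 28 members (75.7%) and for 67.8% of all genes. DKO 2 held the highest of the 3 DKO values for 21 of the 37 members and for 50.5% of all genes. DKO 1 did so for 11 of the 37 and 21.1% of all genes, and DKO 3 for 5 of the 37 and 28.4%. The map of array levels shows that Itga1, Itga8, Itgb8 and Lama4 were highest in DKO 1 and that Itgal, Itgb2l and Itgb3 were highest in DKO 2.

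**Figure D3:**
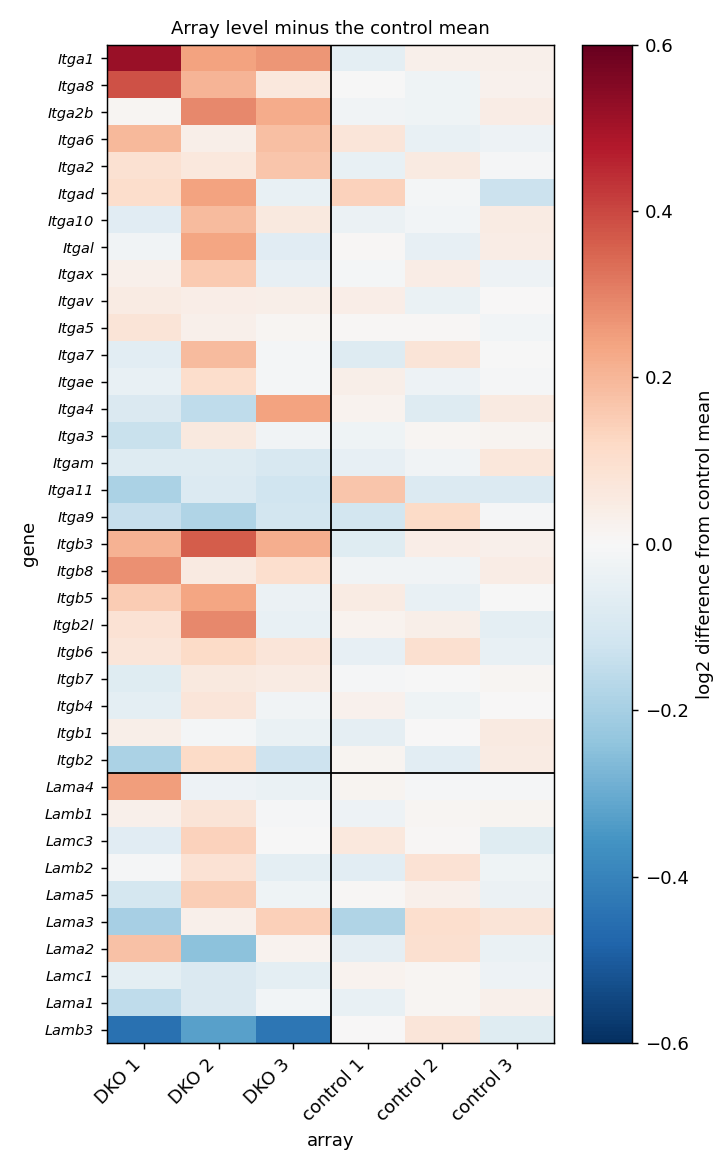
Log2 level of each of the 37 genes (rows) on each array (columns, 3 DKO left of 3 control) minus the gene's control mean, with red above and blue below it. Lamb3 at the foot is low on all 3 DKO arrays. Itga1 and Itgb3 are clearly above their control mean on all 3, and other rows, such as Itga2 and Itgb8, are above it by less. Lama4 is clearly above its control mean on DKO 1 alone.

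The proteins that surround laminins and integrins were examined as 4 lists. Of 20 other basement membrane genes, among them the collagen IV chains, the nidogens, perlecan and agrin, limma called 0, with 3 at an unadjusted p under 0.05 and a median change of -0.01. These were Egflam (-0.17), Col18a1 (-0.15) and Agrn (0.12). Of 24 measured adaptors that link integrins to the cytoskeleton, limma called 0, with 5 at an unadjusted p under 0.05 and a median of -0.04. The 3 with the lowest p were Fermt3, the kindlin of blood cells and platelets (0.24), the plakin Plec (0.18) and the parvin Parva (-0.14). Of 6 other laminin receptors and partners, limma called 0, with 2 at an unadjusted p under 0.05, Sdc4 (-0.18) and the tetraspanin Cd151 (-0.14). Their changes ran from -0.18 to 0.02, with dystroglycan, Dag1, at -0.05.

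The integrin ligands other than laminin were mostly below 0. Of 18 measured, 1 fell and 0 rose, 10 had an unadjusted p under 0.05, and 13 were below 0, with a median of -0.16. Thbs1, the matrix protein thrombospondin that binds several integrins and activates TGF-beta, fell 1.35-fold: it was at 11.45, 11.64 and 11.58 in DKO, against 11.98, 12.03 and 11.98 in control (-0.44, SE 0.06, adjusted p = 0.00714). The groups were far apart, and the call was lost only with ordinary least squares among the alternatives run (adjusted p = 0.139). Tnc, tenascin-C, was at 8.90, 8.25 and 8.59 in DKO and at 9.20, 9.18 and 9.25 in control (-0.63, SE 0.14, adjusted p = 0.0511), and Tgfb3 stood at -0.34 (SE 0.08, adjusted p = 0.0678). Npnt, nephronectin, the ligand of the receptor that holds Itga8, averaged 10.24 ± 0.10 in DKO and 10.02 ± 0.02 in control (SD, n = 3 each), a change of 0.22 (SE 0.06, adjusted p = 0.127). The values of Npnt did not overlap, as those of Itga8. Fn1, fibronectin, stood at 0.05 (SE 0.06, adjusted p = 0.822).

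Of the other tissues that the buds could hold, mesothelial markers had 2 of 6 higher and 0 lower, with a median of 0.17, cardiac markers 1 of 9 higher and 0 lower, with 0.17, and erythroid (median 0.11) and neural crest (median -0.10) markers 0 calls each by limma, with 3 at an unadjusted p under 0.05 in each list. The plot by list sets these beside the integrin and laminin genes, whose medians of 0.04, 0.09 and -0.00 for alpha subunits, beta subunits and laminin chains lay nearer to 0 than those of the lung epithelium and smooth muscle lists.

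**Figure D4:**
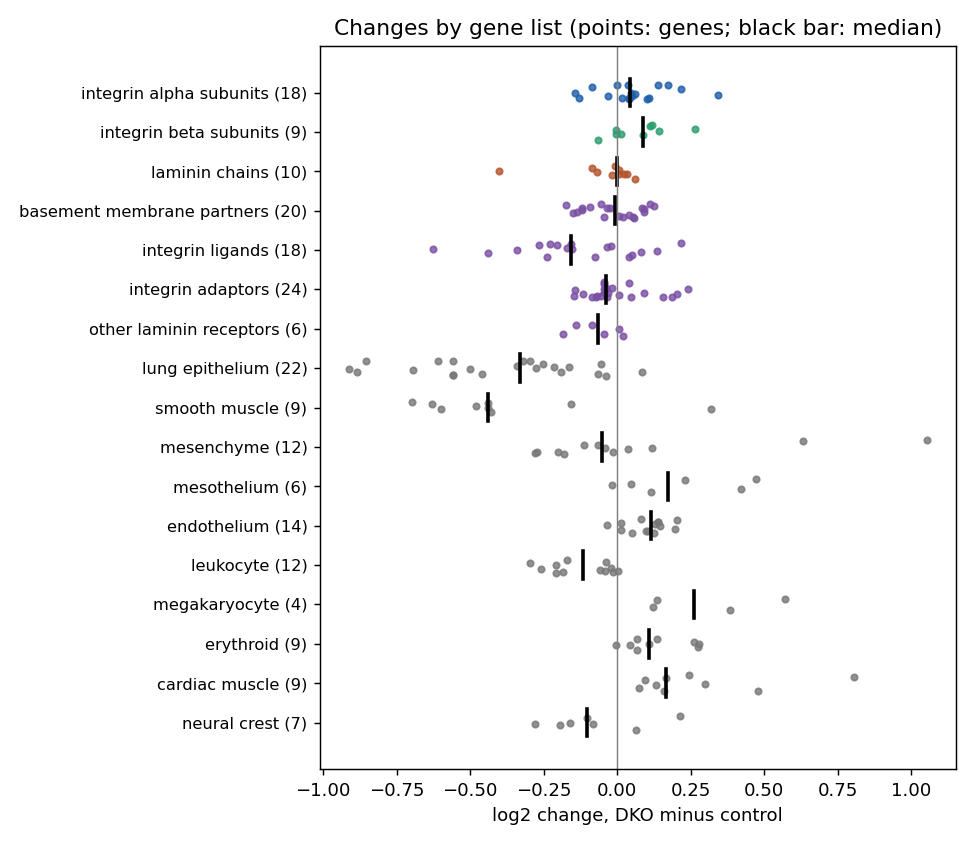
Log2 change (DKO minus control) of every measured gene in the 3 families of members (blue, green and orange), the 4 lists of surrounding genes (purple) and the 10 lists of cell type markers (grey), with the number of genes in brackets and a black bar at the median. Lamb3 is the laminin chain at -0.40, beside medians of -0.33 for lung epithelium and -0.44 for smooth muscle.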

How the data were processed

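Total RNA (100 ng) from 6 samples of E11.5 lung buds was labelled with biotin and hybridised to MoGene 1.1 ST arrays, per the labels. The authors deposited 1 log2 value per probe set and array (35556 probe sets). The tools oligo, RMA and limma are given without versions, per the submitters' processing notes. The log base (2) follows from RMA and the values' range, and scanner files were not used here. Genes were named from the platform annotation (21789 probes with 1 gene, 1621 with several, which were left out), with symbols checked against RefSeq (GRCm38.p6). The brightest probe stood for each gene.

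DKO and control, grouped by title, were compared by lmFit and eBayes (limma 3.58.1 under R 4.3.3, two-sided) on all 19938 genes, with Benjamini-Hochberg adjustment and a threshold of 0.05. The fit was tested on simulated data. Differences between genes within an array used an exact permutation test over the 6 arrays. The members, gene lists, gene pairs and motifs were chosen with earlier results of these data known, and the comparison with every epithelial and megakaryocyte marker was added after seeing the data. All members are named. Single arrays are given for those at an unadjusted p under 0.05 and, chosen after their values were seen, for others. Of the surrounding genes, those called or up to 3 with the lowest p are named, and Tnc, Tgfb3, Npnt, Fn1, Dag1 and the marker genes were singled out after their values were seen. Alternatives are listed with their effect at the end. Replicate numbers did not pair the samples: deviations from the group means correlated at -0.06, 0.05 and 0.16 for numbers 1, 2 and 3. The number of arrays limits the precision.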

Additional observations from a re-analysis of the deposited data

How the results depend on the processing

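The 1 member called became 0 when adjusted over all probes and with ordinary least squares, 2 with a second quantile normalization (2.52% of all genes) and 3 with an intensity trend (3.64%). It became 3 of the 31 members left without the dimmest 30% of genes (4.32% of 13956) and 2 of the 23 left without the dimmest 50% (5.69% of 9969). It became 6 with array weights, which called 2003 of 19938 genes. Leaving out 1 array gave 0 to 2. Over all genes the count of 481 became 725 with an intensity trend, 2003 with array weights, 148 when adjusted over all probes and 16 with ordinary least squares, and 197 to 811 when 1 array was left out, the extremes being without control 2 and without DKO 2. The replicate number as a block gave the same 1 member, Lamb3, so it changed no call among the members. It called 406 of all genes, which is within 1.5 times the main count. The median change of the members was -0.00 to 0.05 when 1 array was left out.

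Several changes had no settled direction, and none of these was called. Most were near 0, but Itgad (0.10), Itgb2l (0.11) and Itgb5 (0.12) in the main fit were among them. With array weights, where DKO 3 had the highest weight (4.09) and DKO 2 the lowest (0.275), the sign turned for Itga7 -0.0014, Itgad -0.013, Itgae -0.011, Itgal -0.048, Itgax -0.026, Itgb2l -0.0084, Itgb5 -0.0020, Lama2 0.029, Lama3 0.11, Lama4 -0.0073, Lama5 -0.023, Lamb2 -0.040, Lamc3 -0.0025 (log2 change). A second quantile normalization turned Itgb1 (0.00027) and Lama3 (0.00064). When 1 array was left out, the sign turned for some array in these genes, with the ranges Itga10 -0.0039 to 0.13, Itga3 -0.077 to 0.019, Itga4 -0.12 to 0.077, Itga7 -0.039 to 0.088, Itgae -0.029 to 0.047, Itgal -0.044 to 0.11, Itgax -0.0098 to 0.093, Itgb1 -0.033 to 0.021, Itgb4 -0.041 to 0.025, Itgb7 -0.010 to 0.054, Lama2 -0.11 to 0.097, Lama3 -0.099 to 0.087, Lama4 -0.034 to 0.11, Lama5 -0.067 to 0.060, Lamb2 -0.034 to 0.049, Lamc3 -0.036 to 0.066. The causes were not tested.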

Other observations

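The 4 genes left out by name gave no call. The integrin beta1 binding proteins Itgb1bp1 and Itgb1bp2 stood at 0.05 and 0.12, the centromere protein gene Itgb3bp at -0.22 (SE 0.18) and Itgbl1 at 0.04. A further 3 probes carry the names of both the ribosomal protein gene Rpl35 and Itgam. Their means were 13.00 to 13.01 in DKO and 12.99 to 13.01 in control, with differences of 0.01 each, while the probe of Itgam alone averaged 6.45 in DKO and 6.53 in control.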
